A study of Mus musculus with 76 samples.

Results

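Lung vessels of unexposed mice were compared at 8 months and 3 months. The comparison takes in the 19 control vessel arrays of the 76 in the series, 10 at 8 months and 9 at 3 months. Members were chosen by their labels: every array of microdissected vessel tissue from control mice, knockout or wild-type, at either time. The 2 wild-type arrays at 3 months that carry the same mouse number were averaged, which left 18 replicates, each from its own mouse: 5 knockout and 5 wild-type at 8 months, and 4 knockout and 4 wild-type at 3 months.

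Both genotypes come from the strain C57BL/6-Noxo1(tm1881_17.2Arte); Noxo1 encodes an organizer subunit of the NADPH oxidase NOX1 complex. The labels call the mice knockout or wild-type and do not say which part of Noxo1 is deleted. Control mice had no cigarette smoke, whereas smoke exposure in the other mice of the study began in week 12. The labels do not say whether 8 and 3 months count from birth or from week 12, nor do they give sex, litter or the time of day of tissue collection. Of the 18 mice, 17 also gave septa, the walls between alveoli.

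RNA was amplified before labelling, and each value is a log2 signal of 1 probe, the brightest of its gene, over 20710 genes. Depth has no meaning on an array, and the number of arrays limits the precision. The 1322 odorant and vomeronasal receptor genes, which lung tissue is not known to use, had a median log2 signal of 2.11 and a 95th percentile of 3.31 (the receptor level below), and 64.5% of genes lay above that level at the time where they were brighter. The median correlation of a control vessel replicate with the others lay between 0.804 and 0.884. Acta2, which encodes smooth muscle actin, lay between 14.1 and 15.2 on every control vessel array and Myh11, smooth muscle myosin, between 10.3 and 12.7, so the labelled tissue held its defining genes. Scgb1a1 of airway club cells and Sftpc of type 2 pneumocytes were also bright, with lowest values of 14.04 and 13.0, so the dissected tissue also held airway and alveolar RNA. In bulk tissue, fewer cells of a type and less RNA per cell cannot be told apart. Noxo1 averaged 3.74 ± 1.93 in knockout and 3.60 ± 1.57 in wild-type control vessels at 8 months (SD, n = 5 each), near the receptor level, and the library labelled knockout replicate 4 at 8 months had 7.03, above every wild-type one. The Noxo1 probe did not separate the genotypes in these vessels, and genotypes below are those of the labels. Xist exceeded the Y-linked genes in 1 of 10 replicates at 8 months and in 2 of 8 at 3 months.

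Vessels of the lung hold endothelium, smooth muscle and adventitial fibroblasts, with immune cells in and around them. With time, vessels of many organs are known to stiffen as their matrix changes and to show more signs of inflammation. Ly6a and Ly6c1, cell surface proteins of the Ly6 family, mark much of the mouse endothelium and are known to respond to interferon.

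At 8 months the vessels had more Ly6a, and this was the only gene of 20710 past the threshold of the moderated test (limma, Benjamini-Hochberg adjusted p under 0.05, 0.00483% of genes). In knockout vessels at 8 months Ly6a read 12.08, 11.96, 12.15, 12.47 and 12.64, against 11.07, 11.84, 11.01 and 11.87 in knockout vessels at 3 months. In wild-type vessels at 8 months it read 12.09, 12.78, 12.35, 12.69 and 11.82, against 11.62, 11.69, 11.35 and 11.23 in wild-type vessels at 3 months. The groups overlapped by 1 replicate: 9 of the 10 values at 8 months lay above the highest 3-month value. Ly6a averaged 12.30 ± 0.331 at 8 months (SD, n = 10) and 11.46 ± 0.341 at 3 months (SD, n = 8), a log2 difference of 0.84 ± 0.14 (SE), which is 1.79-fold, with an adjusted p of 0.0241.

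Leaving out 1 replicate at a time gave Ly6a differences of 0.77 to 0.91 with adjusted p between 0.00461 and 0.123, and the call held in 11 of the 18 fits. It was lost without knockout replicate 3 at 3 months or replicates 4 or 5 at 8 months, and without wild-type replicate 4 at 3 months or replicates 2, 3 or 4 at 8 months. With the replicate number as a block the adjusted p was 0.0568, and without the replicates where Xist exceeded the Y-linked genes it was 0.250. The Ly6a call was also lost with only the 18 control replicates in the fit (adjusted p 0.0933), with quantile normalization (0.0697), with 75th percentile scaling (0.0918), without the eBayes trend (0.189) and without mice 7 and 29 (0.158). Mouse 7 (knockout) and mouse 29 (wild-type) had the highest Noxo1 signals of their genotypes in control vessels, 7.03 and 5.88. Wild-type replicate 4 at 3 months, with 5.82, stayed in that fit.

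Smoke-exposed vessels, which come from other mice, gave a like Ly6a difference over the same times, 0.84 ± 0.14 (SE) with an adjusted p of 0.00883. The Ly6a difference in the septa of the control mice was 0.21 ± 0.14 (SE), with an adjusted p of 0.877. The vessel difference exceeded the septa difference by 0.63 at an unadjusted p of 0.00170, which did not pass over all genes (adjusted p 0.298). Ly6a was already high in septa at 3 months, 12.12 in knockout and 12.25 in wild-type mice, so the vessel values at 8 months lay near the septa values.

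Its relative Ly6c1 differed by 0.69 ± 0.14 (SE) at an adjusted p of 0.0547, just short of the threshold. Ly6c1 ranged from 12.89 through a median of 13.65 to 13.77 at 8 months and from 12.36 through 12.86 to 13.13 at 3 months, with 9 of 10 eight-month values above the highest 3-month value. The second Ly6c1 probe, dimmer at 11.46, gave 0.98. Ly6e, another member of the family and as bright, differed by -0.02 ± 0.12 (SE).

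**Figure D1:**
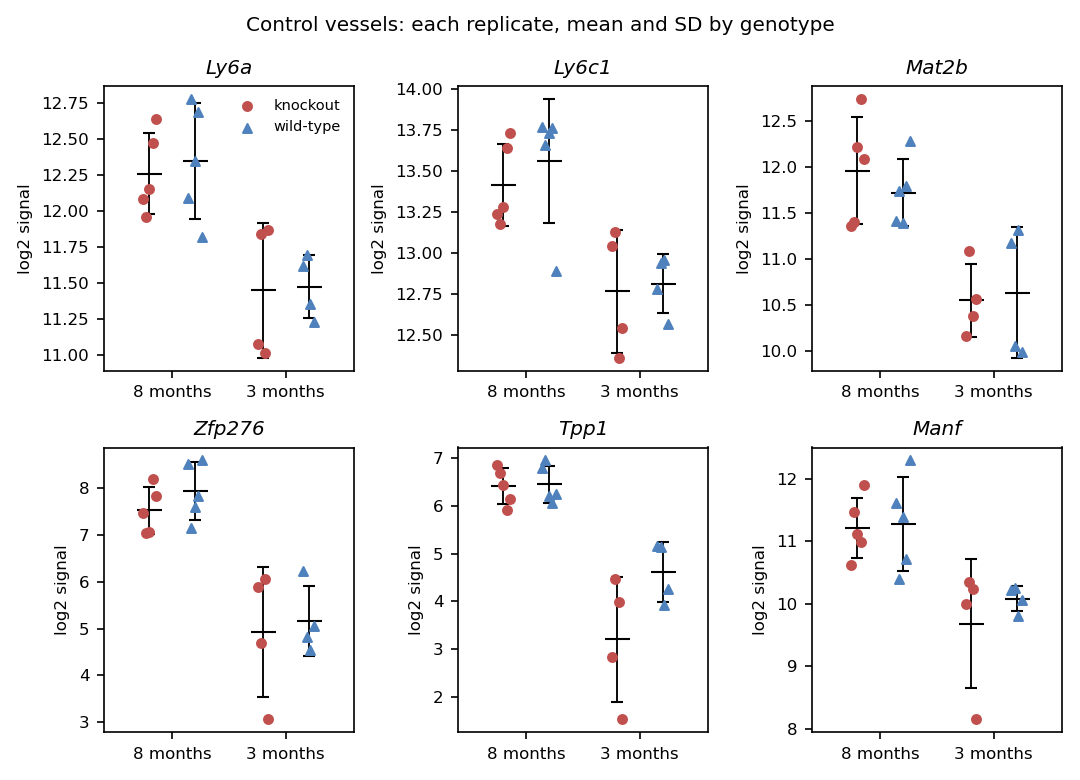
Log2 signal (vertical axes, scaled per gene and not starting at 0) of 6 genes in each control vessel replicate at 8 months and 3 months. Circles are knockout and triangles wild-type mice, and bars give the mean ± SD of 5 mice at 8 months or 4 at 3 months; for Mat2b, Zfp276, Tpp1 and Manf all 10 eight-month points lie above the highest 3-month point.

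Zfp276, Tpp1 and Mat2b had the same adjusted p as Ly6c1, 0.0547, and their replicates did not overlap between the times. Zfp276, a zinc finger protein, ranged from 7.04 through a median of 7.72 to 8.60 at 8 months and from 3.06 through 4.95 to 6.23 at 3 months, a difference of 2.69 ± 0.51 (SE). Tpp1, a lysosomal peptidase, ranged from 5.92 through 6.35 to 6.95 at 8 months and from 1.53 through 4.13 to 5.17 at 3 months, a difference of 2.52 ± 0.50 (SE). Mat2b, the regulatory subunit of the enzyme that makes S-adenosylmethionine, ranged from 11.36 through 11.76 to 12.74 at 8 months and from 9.99 through 10.48 to 11.32 at 3 months, a difference of 1.24 ± 0.25 (SE). Complete separation of this kind, with all 10 eight-month replicates above the highest of the 8 at 3 months, was seen in 8 of all genes (0.0386%), and the opposite separation in 0 (0%). Of the 20 genes named here by p, 5 had it: Zfp276, Tpp1, Mat2b, Specc1l and Manf. The 20 were chosen by p in these same replicates, so that count is a description.

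Each of these 3 genes was measured by 1 probe. All 3 passed the threshold when genes at or below the receptor level were left out of the adjustment, with adjusted p of 0.0380 for Zfp276 and Tpp1 and 0.0412 for Mat2b. Tpp1 at 3 months, with a mean of 3.92, lay close to the receptor level.

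The other genes of low p did not pass the threshold, with adjusted p from 0.103 to 0.157. Specc1l, which links actin and microtubules, had the largest difference, 3.33 ± 0.70 (SE), but its 3-month mean of 2.60 lay within the receptor level. Among genes of membranes and receptors, Cd9, a tetraspanin, differed by 0.57 ± 0.13 (SE), Ptprj, a receptor phosphatase of endothelium, by 1.07 ± 0.24, and Ifngr2, a chain of the interferon gamma receptor, by 1.36 ± 0.32. Of the 4 Ptprj probes 1 gave -0.23, and the mean of all 4 differed by 0.74 (adjusted p 0.611). Ifngr2 ranged from 9.85 through a median of 11.02 to 11.82 at 8 months and from 8.61 through 9.33 to 11.06 at 3 months, with 5 of 10 eight-month values above the highest 3-month value.

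Prss23, a secreted protease of endothelium, ranged from 12.40 through 12.93 to 13.52 at 8 months and from 10.96 through 12.22 to 12.53 at 3 months, a difference of 0.95 ± 0.21 (SE). Slmap, a protein of muscle membranes, differed by 1.17 ± 0.26, and Pdcd6ip, a vesicle sorting protein, by 1.14 ± 0.25, although the second Pdcd6ip probe gave -0.18. Eef2, a translation elongation factor, differed by 0.65 ± 0.15, and Hnrnpm, an RNA-binding protein, by 0.68 ± 0.16. Lmnb1, lamin B1 of the nuclear envelope, which is known to decline in senescent cells, ranged from 6.38 through 7.72 to 8.48 at 8 months and from 4.98 through 6.37 to 7.08 at 3 months. The Lmnb1 difference was 1.63 ± 0.38 (SE).

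The 3 genes of low p on the other side were Utrn, Cenpb and Cd300a. Utrn, the utrophin of the membrane skeleton, ranged from 7.44 through 9.03 to 9.70 at 8 months and from 9.56 through 10.00 to 11.57 at 3 months, a difference of -1.36 ± 0.30 (SE). Cenpb, a centromere protein, differed by -1.99 ± 0.45, but its other probes gave -0.09 and 1.17, so the value holds for 1 probe. Cd300a, an inhibitory receptor of myeloid cells, ranged from 12.95 through 13.16 to 13.73 at 8 months and from 13.40 through 13.70 to 14.04 at 3 months, a difference of -0.49 ± 0.12. In all, 985 genes had an unadjusted p under 0.05 and a higher mean at 8 months (4.76%), and 757 had one and a lower mean (3.66%).

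The differences of these 20 genes had the same sign in both genotypes for all 20. In smoke-exposed vessels 18 of 20 had the same sign and 14 an unadjusted p under 0.05, with a median size of 0.60 against 1.15 in control vessels. In control septa 18 of 20 had the same sign and 6 such a p, with a median size of 0.27. Of all 20710 genes, 2266 had such a p in smoke-exposed vessels and 1344 in control septa. The genes were chosen by their p in control vessels, so these counts are a description. The test of the difference itself gave an unadjusted p under 0.05 for 4 of 20 against smoke-exposed vessels (Hsp90b1, Manf, Cenpb and Cd300a) and for 15 of 20 against septa, where 1039 and 1722 of all 20710 genes had one. The control vessel values that chose the 20 genes enter both of these differences, so these counts too are a description.

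Over the whole array, 39 genes passed in smoke-exposed vessels (0.188%) and 5 in control septa (0.0241%). The vessel count came from the fit of 36 vessel replicates. The septa count came from the fit over 75 replicates of both tissues, so the 2 counts cannot be compared. Of the 39, 36 had the same sign in control vessels; the share of all genes with the same sign was not computed. In control vessels 13 of the 39, Ly6a among them, had an unadjusted p under 0.05, against 1742 of all 20710 genes. Over all genes, which are not independent replicates, the time differences of control and smoke-exposed vessels correlated at 0.245. No gene passed the test of control against smoke-exposed vessels (lowest adjusted p 0.642), where 1039 genes had an unadjusted p under 0.05.

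**Figure D2:**
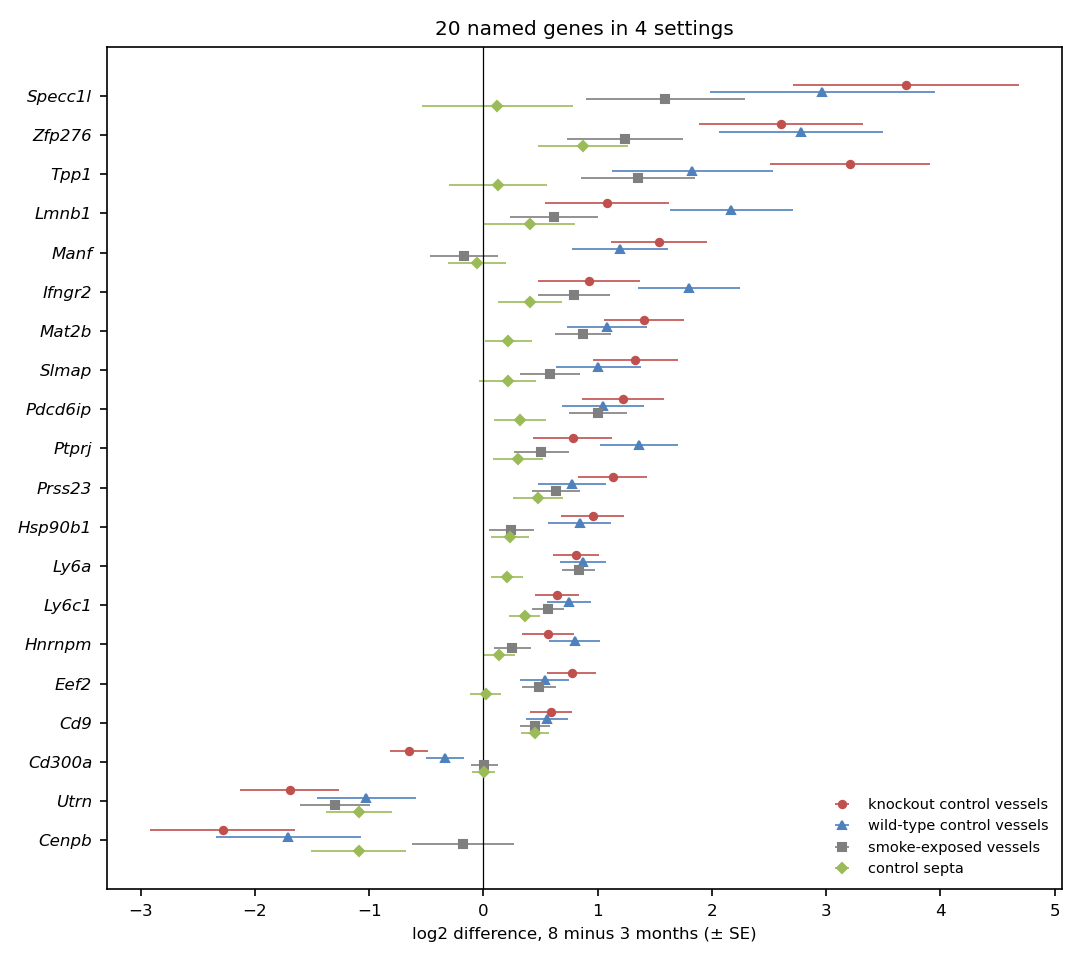
Log2 difference between 8 months and 3 months (horizontal axis, ± SE) of the 20 genes named by p, for knockout control vessels, wild-type control vessels, smoke-exposed vessels and control septa. Circles and triangles of the 2 genotypes lie on the same side of 0 for all 20 genes, while the squares and diamonds lie nearer to 0 than the mean of both genotypes for all 20.

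Genes of the endoplasmic reticulum (ER) were 1 of 3 lists with 6 members at an unadjusted p under 0.05. The ER folds secreted and membrane proteins; Hsp90b1, Hspa5 and Calr are its main chaperones, Pdia6 and Creld2 act on disulfide bonds, Sdf2l1 assists Hspa5, and Manf is a secreted protein made when folding is strained. Of 16 measured genes, 14 had a higher mean at 8 months and 6 of these an unadjusted p under 0.05, against 4.76% of all genes in that direction. The median difference was 0.59, against 0.02 over all genes, and no member passed the adjustment (lowest adjusted p 0.125).

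The promoters of this group are shown because many hold the ER stress response element, a block bound by transcription factors of the unfolded protein response. The motif searched was CCAAT, any 9 bases and then CCACG, on both strands, from 250 bases before to 50 after the start in RefSeq (GRCm38.p6). It was found in 6 of the 14 members with a promoter in the table (Hsp90b1, Creld2, Pdia6, Calr, Hspa5 and Dnajc3) and in 39 of all 32851 promoters (0.119%). These letters were not in the window of Sdf2l1, and Manf was not among the 14 members searched. Dnajc3, whose unadjusted p was not under 0.05, is not printed. Below are the promoters of the 4 genes with the motif and an unadjusted p under 0.05 and, for contrast, of Hspa5, whose difference was 0.10 ± 0.20 (SE). Each runs 5′ to 3′ on the strand of its gene, with both blocks of the motif in capitals (CCAAT and CCACG, or ATTGG and CGTGG where the motif lies on the other strand).
Hsp90b1, chr10:86705395-86705694, minus strand: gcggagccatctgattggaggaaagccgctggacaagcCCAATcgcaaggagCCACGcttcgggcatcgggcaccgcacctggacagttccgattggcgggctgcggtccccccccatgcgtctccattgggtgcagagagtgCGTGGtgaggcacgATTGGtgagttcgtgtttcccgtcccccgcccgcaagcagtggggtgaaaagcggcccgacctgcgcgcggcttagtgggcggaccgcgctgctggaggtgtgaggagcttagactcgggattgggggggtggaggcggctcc
Creld2, chr15:88819396-88819695, plus strand: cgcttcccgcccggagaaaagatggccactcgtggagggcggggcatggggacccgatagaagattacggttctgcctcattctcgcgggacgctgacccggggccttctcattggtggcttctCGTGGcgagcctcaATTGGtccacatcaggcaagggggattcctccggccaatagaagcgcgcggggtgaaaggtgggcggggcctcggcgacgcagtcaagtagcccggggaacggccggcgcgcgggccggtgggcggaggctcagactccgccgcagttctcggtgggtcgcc
Pdia6, chr12:17266339-17266638, plus strand: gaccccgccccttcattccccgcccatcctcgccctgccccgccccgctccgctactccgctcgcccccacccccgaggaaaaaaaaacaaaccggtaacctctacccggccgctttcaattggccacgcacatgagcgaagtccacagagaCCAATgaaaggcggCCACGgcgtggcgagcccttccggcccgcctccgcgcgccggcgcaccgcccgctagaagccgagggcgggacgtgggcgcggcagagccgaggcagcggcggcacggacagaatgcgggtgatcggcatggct
Calr, chr8:84846882-84847181, minus strand: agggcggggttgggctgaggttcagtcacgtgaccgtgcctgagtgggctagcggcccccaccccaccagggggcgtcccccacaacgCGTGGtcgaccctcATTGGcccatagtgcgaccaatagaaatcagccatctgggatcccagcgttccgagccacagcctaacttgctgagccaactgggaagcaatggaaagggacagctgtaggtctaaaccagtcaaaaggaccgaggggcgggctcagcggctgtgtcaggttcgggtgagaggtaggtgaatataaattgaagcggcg
Hspa5, chr2:34771840-34772139, plus strand: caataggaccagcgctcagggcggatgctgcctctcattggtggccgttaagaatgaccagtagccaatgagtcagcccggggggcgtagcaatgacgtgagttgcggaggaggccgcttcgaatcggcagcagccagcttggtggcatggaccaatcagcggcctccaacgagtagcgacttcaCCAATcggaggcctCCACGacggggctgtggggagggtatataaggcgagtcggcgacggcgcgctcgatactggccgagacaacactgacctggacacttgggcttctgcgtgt

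Hsp90b1, whose promoter holds 2 of these elements, ranged from 11.23 through a median of 12.16 to 12.85 at 8 months and from 10.43 through 11.36 to 11.74 at 3 months. Its difference was 0.90 ± 0.19 (SE), 0.96 in knockout and 0.84 in wild-type vessels. Manf ranged from 10.39 through 11.24 to 12.29 at 8 months and from 8.15 through 10.14 to 10.35 at 3 months, with no overlap and a difference of 1.36 ± 0.30. Sdf2l1 had the largest difference of the list, 2.43 ± 0.67: it ranged from 7.30 through 9.53 to 11.30 at 8 months and from 2.44 through 7.42 to 9.45 at 3 months.

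Creld2 averaged 9.68 ± 0.762 at 8 months (SD, n = 10) and 8.44 ± 1.05 at 3 months (SD, n = 8). Calr averaged 11.1 ± 0.437 at 8 months and 10.5 ± 0.392 at 3 months, and Pdia6 9.79 ± 0.555 at 8 months and 9.20 ± 0.572 at 3 months. Hspa5 ranged from 8.90 to 10.09 at 8 months and from 9.10 to 10.02 at 3 months, so its values overlapped widely.

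In smoke-exposed vessels Manf differed by -0.17 ± 0.30 (SE), Sdf2l1 by -1.33 ± 0.67 and Hsp90b1 by 0.25 ± 0.19. The test of control against smoke-exposed vessels gave unadjusted p of 0.000793 for Manf, 0.000323 for Sdf2l1 and 0.0228 for Hsp90b1, none past the adjustment over all genes. Calr was an exception, with 0.60 ± 0.21 in control vessels and 0.74 ± 0.21 in smoke-exposed vessels. Against control septa, Manf, Hsp90b1 and Sdf2l1 had unadjusted p of 0.000220, 0.00531 and 0.0140 for the difference.

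Antigen presentation genes had a similar count. Class I molecules (H2-K1 and H2-D1 with B2m) show peptides of the cell's own proteins, class II molecules (H2-Aa, H2-Ab1) show those taken up by immune cells, and Nlrc5 and Ciita switch on the class I and class II genes. Of 16 measured genes, 15 had a higher mean at 8 months and 6 an unadjusted p under 0.05, against 51.8% and 4.76% of all genes, with a median difference of 0.61 and a lowest adjusted p of 0.180. B2m ranged from 11.49 through 12.21 to 12.69 at 8 months and from 11.41 through 11.56 to 11.91 at 3 months, a difference of 0.59 ± 0.15 (SE) that was 0.59 in each genotype. H2-D1 ranged from 11.95 through 12.43 to 13.01 at 8 months and from 10.94 through 11.97 to 12.63 at 3 months, a difference of 0.62 ± 0.19.

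H2-K1 differed by 0.54 ± 0.19, H2-Ab1 by 0.68 ± 0.26, H2-Aa by 0.90 ± 0.30 and Nlrc5 by 1.40 ± 0.66, all on the log2 scale with SE. Cd74, the chain that guards class II molecules and the brightest gene of the list, differed by 0.16 ± 0.17, and Ciita by -0.45 ± 0.31. In smoke-exposed vessels B2m differed by 0.62 ± 0.15, H2-D1 by -0.01 ± 0.19 and H2-Ab1 by -0.17 ± 0.26. The test between control and smoke-exposed vessels gave unadjusted p of 0.900 for B2m, 0.0239 for H2-D1 and 0.0247 for H2-Ab1. H2 genes are near copies of each other, and a probe may read more than 1 of them.

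Of the list of 17 interferon-stimulated genes measured, 10 had a higher mean at 8 months, 0 of these with an unadjusted p under 0.05, and 1 was lower with one. Of 8 dendritic cell markers 6 had a higher mean at 8 months and 1 an unadjusted p under 0.05 (4.76% of all genes), Cd209a with 1.94 ± 0.83. None of 9 B cell markers and none of 11 alveolar macrophage markers had a higher mean with such a p, and their part in the antigen presentation values was not tested.

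Genes induced by glucocorticoids had a higher mean at 8 months in all 12 measured, 6 with an unadjusted p under 0.05 (4.76% of all genes), and a median difference of 0.70. The median was 0.27 in knockout vessels, with 8 of 12 above 0, and 1.04 in wild-type vessels, with 12 of 12. For the contrast of the genotypes 4 of 12 genes had an unadjusted p under 0.05, against 1085 of all 20710 genes. The genes of this list answer the adrenal hormone, which varies with the day and with handling. Klf9, a transcription factor, ranged from 9.99 through 10.64 to 11.55 at 8 months and from 8.93 through 9.55 to 10.39 at 3 months, a difference of 1.11 ± 0.33 (SE) with 8 of 10 eight-month values above the highest 3-month value. Sgk1, a kinase of salt transport, differed by 0.72 ± 0.30, Pdk4, a kinase that limits glucose oxidation, by 1.17 ± 0.57, and Tsc22d3, an anti-inflammatory protein, by 0.38 ± 0.15.

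The metallothioneins Mt1 and Mt2, which bind zinc, differed by 0.61 ± 0.23 and 0.83 ± 0.32 over both genotypes, but not evenly. Mt1 differed by 0.03 in knockout and 1.20 in wild-type vessels (unadjusted p of that contrast 0.0153), and Mt2 by -0.22 in knockout and 1.87 in wild-type vessels (0.00253). Klf9 differed by 1.20 in knockout and 1.03 in wild-type vessels. In smoke-exposed vessels all 12 genes of the list also had a higher mean at 8 months, with a median of 0.58, and in control septa 11 of 12, with a median of 0.85.

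**Figure D3:**
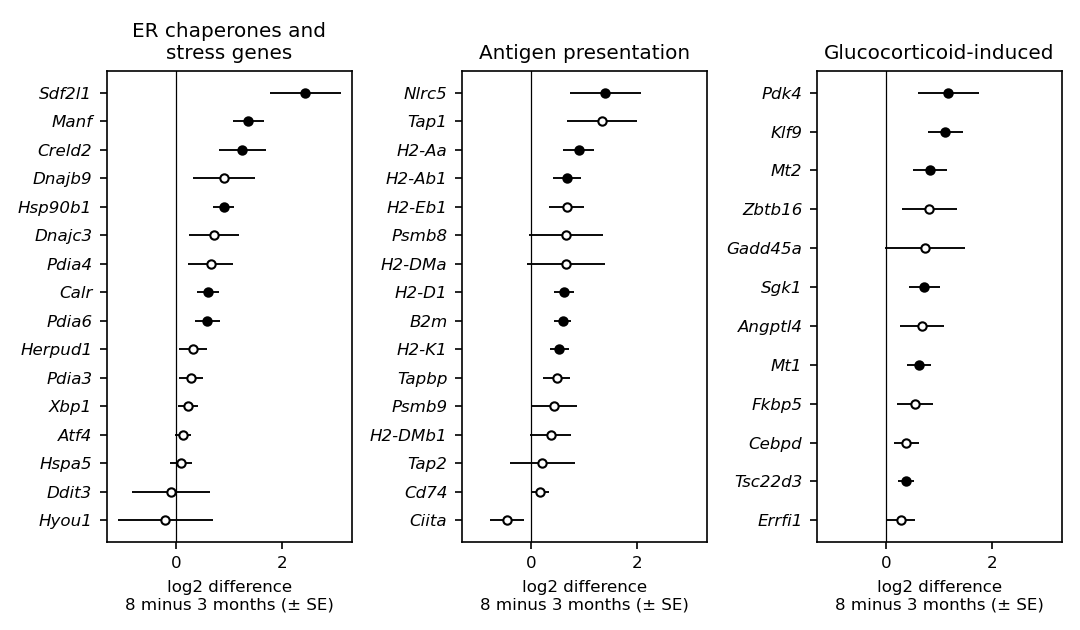
Log2 difference between 8 months and 3 months (horizontal axis, ± SE) in control vessels for every measured gene of 3 lists; filled points have an unadjusted p under 0.05. Of 16 ER genes 14, of 16 antigen presentation genes 15 and of 12 glucocorticoid-induced genes 12 lie right of 0, with 6 filled points in each.

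Of 6 clock activators, Arntl had a higher and Rorb a lower mean at 8 months with an unadjusted p under 0.05, and the list had a median of -0.35 with 2 of 6 above 0. Of 14 repressors and outputs, Dbp was lower with such a p. Over all genes 4.76% were higher and 3.66% lower with one. The clock is a feedback loop in which Arntl and Clock switch on Per, Cry, Nr1d1, Nr1d2 and Dbp, whose levels swing over the day in most tissues. Arntl, the activator, ranged from 1.21 through a median of 5.26 to 7.42 at 8 months and from 1.47 through 2.69 to 4.91 at 3 months, a difference of 1.85 ± 0.74 (SE; unadjusted p 0.0174, adjusted 0.449), and its 3-month mean of 3.12 lay below the receptor level. Dbp, an output gene in opposite phase, ranged from 2.05 through 9.29 to 11.04 at 8 months and from 7.28 through 10.19 to 11.88 at 3 months, a difference of -2.24 ± 0.98 (unadjusted p 0.0287, adjusted 0.515).

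Dbp was lowest in wild-type mice: it read 2.05, 7.72, 9.50, 10.61 and 2.39 in wild-type vessels at 8 months, against 10.06, 10.32, 11.25 and 11.88 in wild-type vessels at 3 months. The 2 wild-type mice lowest in Dbp at 8 months had Arntl values of 6.41 and 6.55. In knockout vessels Dbp differed by -0.06, and the contrast of the genotypes had an unadjusted p of 0.0326. The other core genes gave smaller values: Clock -0.52, Npas2 -0.44, Per1 -0.14, Per2 0.15, Per3 -0.07, Cry1 0.84, Cry2 -0.13, Nr1d1 -0.54 and Nr1d2 -0.35, each with an unadjusted p above 0.05. Rorb, which competes with Nr1d1 for binding sites, differed by -0.81 ± 0.33.

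Smoke-exposed vessels showed the opposite signs, Arntl -1.92 ± 0.74 (SE) and Dbp 3.34 ± 0.98. The test of control against smoke-exposed vessels gave unadjusted p of 0.000963 for Arntl and 0.000290 for Dbp, with an adjusted p of 0.766 for each. The time of day of collection is not in the labels and was not tested.

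**Figure D4:**
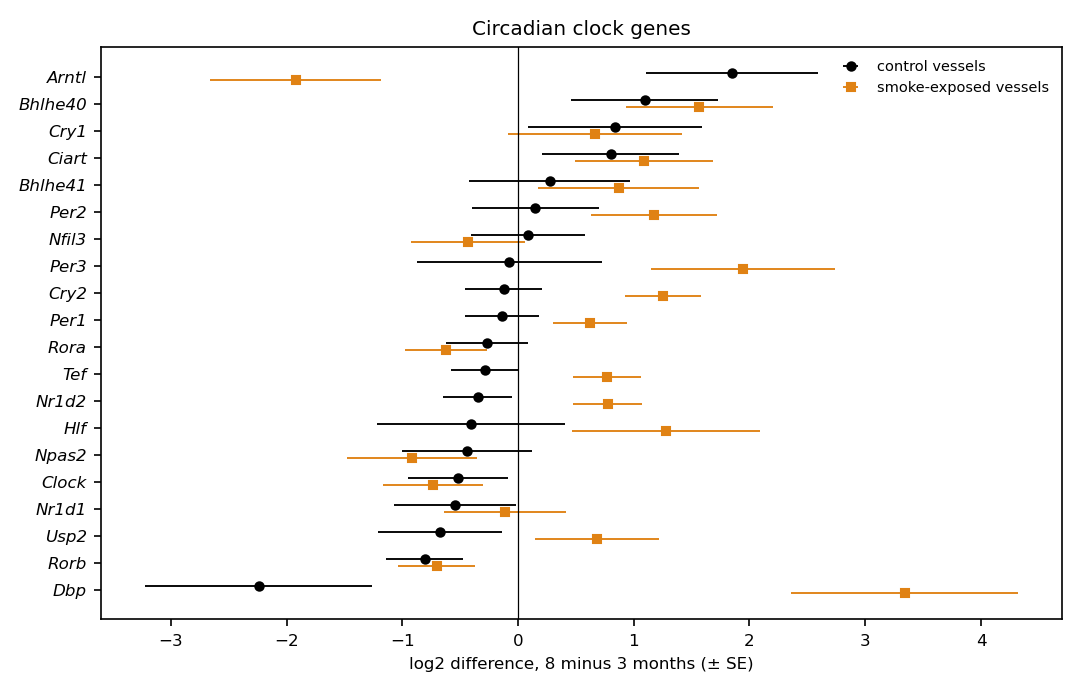
Log2 difference between 8 months and 3 months (horizontal axis, ± SE) of clock genes in control vessels (circles) and smoke-exposed vessels (squares). Arntl at the top and Dbp at the bottom each lie on opposite sides of 0 in the 2 kinds of vessel.

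Neutrophil markers had a median of 1.27, with 9 of 11 genes higher in mean at 8 months, 4 of these and 1 lower with an unadjusted p under 0.05. Over all genes 4.76% were higher and 3.66% lower with such a p. The median was 0.03 in knockout vessels, with 6 of 11 above 0, and 2.38 in wild-type vessels, with 9 of 11. Retnlg, a secreted protein of neutrophils, ranged from 6.93 through a median of 9.52 to 11.74 at 8 months and from 1.66 through 5.24 to 11.08 at 3 months, a difference of 3.94 ± 0.98 (SE; adjusted p 0.180). Mmp8, neutrophil collagenase, ranged from 3.69 through 8.56 to 9.94 at 8 months and from 1.69 through 3.26 to 8.62 at 3 months, a difference of 3.35 ± 0.97. The groups overlapped for both genes, and 1 knockout replicate at 3 months had the highest 3-month value of each.

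The alarmins S100a8 and S100a9, abundant in neutrophils, differed by 1.90 ± 0.75 and 1.29 ± 0.59. Ltf, of neutrophil granules and airway glands, differed by -1.56 ± 0.72, with a mean of 2.06 at 8 months that lay within the receptor level. Csf3r, the receptor for the neutrophil growth factor and the brightest gene of the list, differed by 0.03 ± 0.09. The mean level of the list over its 11 genes lay between 5.46 and 8.30 on the arrays at 8 months and between 4.58 and 8.78 at 3 months.

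The neutrophil values were not even between genotypes. Mmp8 differed by 1.08 in knockout and 5.62 in wild-type vessels (unadjusted p of the contrast 0.0248), where the wild-type mean was 8.51 at 8 months and 2.89, below the receptor level, at 3 months. S100a8 differed by 0.30 in knockout and 3.50 in wild-type vessels (unadjusted p of the contrast 0.0402). Retnlg differed by 2.31 in knockout and 5.57 in wild-type vessels, where that p was 0.105. In smoke-exposed vessels Mmp8 differed by 3.51 ± 0.97 and S100a8 by 2.07 ± 0.75.

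**Figure D5:**
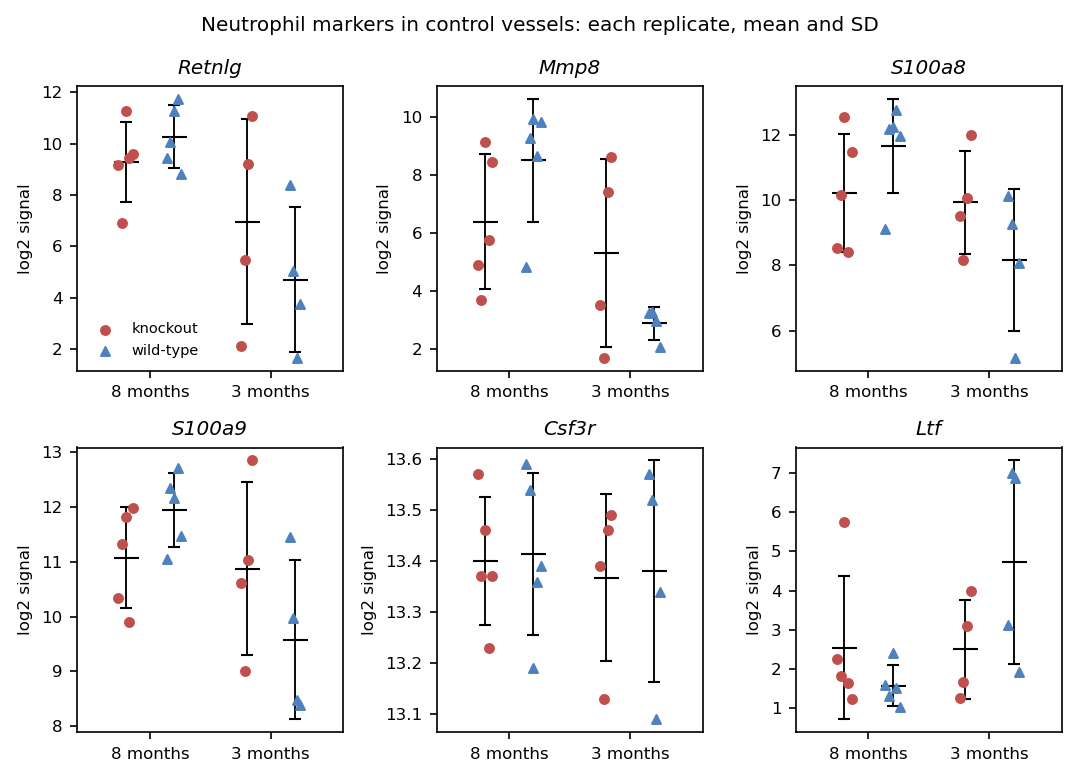
Log2 signal (vertical axes, scaled per gene and not starting at 0) of 6 neutrophil markers in each control vessel replicate at 8 months and 3 months, as circles for knockout and triangles for wild-type mice with mean ± SD. All 4 wild-type points of Mmp8 at 3 months lie below all 5 wild-type points at 8 months, and Csf3r lies between 13.09 and 13.59 throughout.

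Ccr2, the chemokine receptor of inflammatory monocytes, ranged from 2.70 through 5.37 to 6.81 at 8 months and from 1.70 through 2.78 to 5.32 at 3 months, a difference of 2.13 ± 0.65 (SE; adjusted p 0.281), while 4 of the 8 monocyte markers had a higher mean. The 3-month means of Ccr2 (3.02) and of its ligand Ccl2 (3.19) lay below the receptor level. Ccl2 differed by 1.83 ± 0.74 and Ccl9, another monocyte attractant, by 1.29 ± 0.61. Ccl19, which draws lymphocytes, differed by -0.93 ± 0.36 and Cx3cl1, a membrane-bound chemokine of endothelium, by -0.77 ± 0.32. Klrd1, a natural killer cell receptor, differed by 2.61 ± 0.90, Cd4 of helper T cells by -0.71 ± 0.32, and Tpsb2, a mast cell tryptase, by -1.24 ± 0.44. Lyve1, which marks lymphatic endothelium and some tissue macrophages, differed by 0.50 ± 0.21. A higher mean was found for 10 of 15 T and NK cell markers and 3 of 9 mast cell and basophil markers. Of 6 lymphatic endothelium markers 2 had one, with a median of -0.44, and of 10 interstitial macrophage markers 5. Over all genes 51.8% had a higher mean. Across 13 alternative settings the differences nearest to 0 were -0.16 for Cd4 and -0.22 for Ccl19.

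Of 15 markers of arterial and venous endothelium 11 had a higher mean and 3 an unadjusted p under 0.05: Ephb4, a venous receptor, with 0.70 ± 0.25 (SE), Sox17, an arterial transcription factor, with 0.91 ± 0.35, and Hey1, a Notch target, with 0.62 ± 0.26. Sox17 differed by 1.81 in knockout and 0.02 in wild-type vessels. Across 13 alternative settings the lowest difference of Ephb4 was 0.24. Of 12 capillary endothelium markers 7 had a higher mean and 0 an unadjusted p under 0.05. Over all genes 4.76% had a higher mean with such a p.

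Among genes that set vessel tone, 2 of 23 had a higher mean with an unadjusted p under 0.05, a share near the 4.76% of all genes. Edn1, the constrictor endothelin, ranged from 5.23 through a median of 8.26 to 9.00 at 8 months and from 1.60 through 5.89 to 7.78 at 3 months, a difference of 2.07 ± 0.67 (SE; adjusted p 0.323). Npr3, the clearance receptor of natriuretic peptides, differed by 1.92 ± 0.67. Vegfa, the growth factor of endothelium, ranged from 11.40 through 11.81 to 12.76 at 8 months and from 9.88 through 11.16 to 11.83 at 3 months, a difference of 0.92 ± 0.25. Epas1, the hypoxia-inducible factor of endothelium, differed by 0.36 ± 0.11. Across 13 alternative settings the lowest differences were 0.44 for Vegfa and 0.16 for Epas1. Of 19 hypoxia and glycolysis genes 2 had a higher mean with an unadjusted p under 0.05, and 0 with the mean of all probes. No ion channel of 19 had such a p.

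BMP and TGF-beta signals hold vessel cells in balance, and loss of BMP receptor function is known in pulmonary hypertension. Of 23 genes 18 had a higher mean at 8 months, with a median of 0.38. An unadjusted p under 0.05 was found for 4 of these and 1 lower gene, against 4.76% and 3.66% of all genes. The BMP targets Id1 and Id3 differed by 0.75 ± 0.27 and 1.14 ± 0.40 (SE), and by 0.95 and 1.21 in smoke-exposed vessels. The receptors Tgfbr2 and Bmpr1a differed by 0.69 ± 0.28 and 0.77 ± 0.37, while Smad1, which carries the BMP signal, differed by -1.19 ± 0.45. With the mean of all probes Smad1 differed by -0.07 and the median of the list was 0.16. That median was 0.21 without the arrays with Xist above Y-linked genes and 0.22 without mice 7 and 29.

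Of 25 Wnt genes, 4 had an unadjusted p under 0.05, 2 higher and 2 lower, against 4.76% and 3.66% of all genes. Sfrp2, a secreted Wnt modulator of fibroblasts, ranged from 7.03 through a median of 10.84 to 12.78 at 8 months and from 10.21 through 12.75 to 13.63 at 3 months, a difference of -2.06 ± 0.53 (SE; adjusted p 0.180). Sfrp2 had like differences elsewhere, -2.02 in smoke-exposed vessels and -2.21 in control septa. Wnt5a, a ligand, differed by -0.99 ± 0.38, and the receptors Fzd1 and Fzd2 by 1.51 ± 0.59 and 1.28 ± 0.59.

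Of 16 collagens and 15 collagen-processing genes, 0 had an unadjusted p under 0.05, and the median differences were 0.18 and 0.12. With the mean of all probes these medians were 0.05 and -0.06, with 7 of the 15 processing genes above 0, against 11. Of 22 elastic fibre genes 2 had a higher mean with such a p, near the 4.76% of all genes: Loxl1, which crosslinks elastin, with 0.89 ± 0.35 (SE) and Fbn1, fibrillin, with 0.76 ± 0.31. Of the elastic fibre genes 0 were higher with such a p without the arrays with Xist above Y-linked genes, and 3 were lower with one under quantile normalization or 75th percentile scaling. Among matrix proteases and their inhibitors, Timp3 differed by 0.95 ± 0.31, Timp4 by 1.07 ± 0.39 and Ctss, a protease of macrophages, by 0.77 ± 0.34.

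Contractile genes of smooth muscle had a median of 0.03, with 9 of 17 higher in mean, and of -0.05 with 75th percentile scaling. Itga8, an integrin, differed by 0.66 ± 0.29 (SE) and Cald1, caldesmon, by 0.89 ± 0.40. Ccn2, a matrix signal protein, and Klf4, a switch of muscle cell state, both in the immediate early list, differed by 0.83 ± 0.26 and 0.98 ± 0.29, while Egr3 of the same list differed by -1.70 ± 0.68.

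Of 13 senescence and p53 genes, Lmnb1 above and Cdkn1a, a brake on the cell cycle, with 1.07 ± 0.49 (SE), had an unadjusted p under 0.05. Both were higher at 8 months, as were 4.76% of all genes with such a p. Cdkn1a differed by -1.15 ± 0.49 in smoke-exposed vessels (unadjusted p of the contrast 0.00310). Pcna, the replication clamp, differed by 0.87 ± 0.26, Mcm4 of the replication helicase by 1.52 ± 0.74 and Rrm2, which makes deoxynucleotides, by -1.70 ± 0.83. Among heat shock genes Hsp90ab1 differed by 0.43 ± 0.15 and Hspa8 by -0.38 ± 0.16. Of 21 antioxidant genes, Gpx1 differed by 0.59 ± 0.21 and Gclc by -1.15 ± 0.46.

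NADPH oxidase genes, the family Noxo1 belongs to, had a median of -0.14, with 5 of 13 higher in mean. Rac1, the small GTPase of the complex, differed by 0.38 ± 0.12 (SE). Cybb, the phagocyte oxidase NOX2, differed by -2.03 ± 0.84, -3.22 in knockout and -0.85 in wild-type vessels. Noxo1 itself differed by 0.17 ± 0.67.

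The time difference was also taken within each genotype. In knockout vessels 1 gene passed (0.00483%): Trak2, an adaptor for mitochondrial transport. Trak2 read 8.83, 9.49, 8.61, 8.46 and 9.51 in knockout vessels at 8 months, against 6.43, 7.46, 3.52 and 1.12 in knockout vessels at 3 months, a difference of 4.35 ± 0.76 (SE; adjusted p 0.0331). No gene passed in knockout vessels with only the 18 control replicates, the replicate block, the mean of all probes, array weights, no trend or without mice 7 and 29, nor in 5 of the 18 fits that left out 1 replicate. In wild-type vessels it read 6.98 to 8.63 at 8 months and 7.88 to 8.51 at 3 months, so the knockout mice at 3 months were the low ones. The contrast of the genotypes for Trak2 was 4.77 ± 1.07, with an adjusted p of 0.680.

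In wild-type vessels 0 genes passed (1145 with an unadjusted p under 0.05, lowest adjusted p 0.402). The lowest p belonged to Btg1, a brake on proliferation, with 1.99 ± 0.43 in wild-type and -0.47 in knockout vessels. The contrast of the genotypes passed for 0 genes, with 1085 at an unadjusted p under 0.05 by limma. Pulmonary vein cardiomyocyte markers lay on opposite sides, with a median of 1.54 in knockout and -2.52 in wild-type vessels, and 3 of 14 had an unadjusted p under 0.05 for that contrast. The mean level of these markers lay between 3.37 and 11.8 on the arrays at 8 months and between 3.85 and 11.4 at 3 months. Oxidative phosphorylation genes also differed in sign, with medians of 0.33 in knockout and -0.44 in wild-type vessels, and a median of 0.00 over both. The part of heart muscle in these values was not tested. The library labelled knockout replicate 4 at 8 months, with the Noxo1 value above, entered every genotype contrast here.

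Set against the septa of control mice, 2 genes passed the test of the difference between tissues (0.00966%), with mouse as a random block. That test came from 1 fit over the 75 replicates of both tissues, which shared 1 residual spread per gene. The median residual SD was 0.98 in vessels and 0.738 in septa. For time in control vessels the same fit gave 168 genes, against 1 in the vessel fit and 13 with weights by tissue. Weights by tissue were not tried for the contrast of the tissues. Pabpc1, which binds the tails of messenger RNA, differed by 0.74 ± 0.24 (SE) in vessels and -0.73 ± 0.20 in septa, and the contrast of 1.47 ± 0.28 had an adjusted p of 0.0338. Tuba1b, a tubulin, differed by 0.25 ± 0.13 in vessels and -0.62 ± 0.12 in septa, and the contrast of 0.87 ± 0.17 had an adjusted p of 0.0338. In vessels alone neither passed, with adjusted p of 0.326 for Pabpc1 and 0.624 for Tuba1b, and in septa Tuba1b passed at 0.0251. No gene passed this contrast with the replicate block, 75th percentile scaling, array weights, no trend or without the arrays with Xist above Y-linked genes, nor in 7 of the 18 fits that left out 1 replicate.

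Of 11 club and goblet cell markers 2 had a higher mean at 8 months and 3 were lower with an unadjusted p under 0.05, among them Muc5ac, an airway mucin, with -0.97 ± 0.44 (SE), and Hp, haptoglobin, with -0.77 ± 0.35. Over all genes 3.66% were lower with such a p. Of 12 type 2 pneumocyte and 12 ciliated cell markers 0 had one. All 8 erythroid markers had a lower mean at 8 months, with a median of -0.49, and 0 had an unadjusted p under 0.05. Without the arrays with Xist above Y-linked genes the erythroid median was 0.14 with 5 of 8 above 0, and with array weights it was -0.28 with 2 above 0. Over the 701 genes of all lists, 61 were higher and 24 lower with an unadjusted p under 0.05, against 4.76% and 3.66% of all genes. Of the lists, 0 had a member past the adjustment over all genes.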

How the data were processed

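RNA of microdissected lung vessels and septa was amplified, labelled and hybridised to single-colour Agilent arrays, per the labels' protocols. The deposited values are log2 signals that the authors normalised, and the submitters' processing notes name limma without a version; no source used here states how background was corrected. The columns have nearly equal quartiles, so the values were taken as already normalised between arrays. Of 62976 features 31465 carried 1 gene symbol, 29050 of them matched by accession to RefSeq, and 2933 symbols were updated. The brightest probe was kept for each gene, and 20710 genes without an empty value were tested.

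Each genotype, exposure and time had its own mean over 36 vessel replicates, the 2 arrays of mouse 25 averaged, and control vessels at 8 months were set against 3 months with equal weight to the genotypes (limma 3.58.1 in R 4.3.3, lmFit and eBayes with trend). P-values were Benjamini-Hochberg adjusted over all genes at 0.05. The tissue contrast and the time differences in septa used 1 fit over 75 replicates of both tissues, with mouse as a random block. Nothing says more than that replicates are separate mice.

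Named genes were those past the threshold, filled to 20 by lowest p among genes above the receptor level, up to 3 of each list by p and the core clock genes; further list members with an unadjusted p under 0.05, and members such as Hspa5, Cd74, Csf3r and Ly6e, were added after their values were seen. The comparison and the gene lists were chosen with earlier results of these data known. The fit was also run on simulated data, and the outcome is not reported here. Alternatives were the probe rule, filters, scalings, array weights, a replicate block, other sample sets and leaving out each replicate; a fit with weights by tissue was chosen after seeing the data.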

Additional observations from a re-analysis of the deposited data

Results flagged for a closer look

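A single replicate lay far from the others of its group in 28 of 436 cases, counted over 109 named genes in the 4 control vessel groups (6.42%). Chance alone marks about 1 in 20 groups by this measure, a gap to the nearest value set against the whole range of the group.

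Among knockout vessels at 8 months there were 3 such values. Ltf in replicate 3 was highest at 5.739 (nearest other value 2.258). Per2 in replicate 2 was lowest at 7.82 (nearest other value 8.789) and Nr1d2 in replicate 2 was lowest at 7.542 (nearest other value 8.999).

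Among wild-type vessels at 8 months there were 6 such values. Ccl19 in replicate 3 was highest at 9.507 (nearest other value 7.804). Ly6c1 in replicate 5 was lowest at 12.89 (nearest other value 13.66) and Mmp8 in replicate 1 was lowest at 4.835 (nearest other value 8.657). S100a8 in replicate 1 was lowest at 9.123 (nearest other value 11.98) and Ccn2 in replicate 2 was lowest at 12.72 (nearest other value 13.55). Klrd1 in replicate 1 was lowest at 2.195 (nearest other value 6.997).

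Among knockout vessels at 3 months there were 12 such values. Utrn in replicate 4 was highest at 11.57 (nearest other value 9.884) and Sgk1 in replicate 1 was highest at 8.969 (nearest other value 7.922). Npas2 in replicate 3 was highest at 2.938 (nearest other value 2.014) and Ccl2 in replicate 1 was highest at 6.066 (nearest other value 2.648). Manf in replicate 4 was lowest at 8.146 (nearest other value 9.99) and Creld2 in replicate 4 was lowest at 6.947 (nearest other value 9.195). Pdk4 in replicate 3 was lowest at 8.17 (nearest other value 10.26) and Cybb in replicate 2 was lowest at 4.814 (nearest other value 9.406). Fzd2 in replicate 3 was lowest at 3.914 (nearest other value 6.026) and Per2 in replicate 4 was lowest at 4.626 (nearest other value 8.979). Nr1d1 in replicate 1 was lowest at 4.862 (nearest other value 7.044) and Hsp90ab1 in replicate 4 was lowest at 12.55 (nearest other value 13.2).

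Among wild-type vessels at 3 months there were 7 such values. Cry1 in replicate 2 was highest at 4.536 (nearest other value 2.539). Specc1l in replicate 4 was lowest at 0.9537 (nearest other value 3.105) and Cenpb in replicate 2 was lowest at 7.739 (nearest other value 9.098). Sfrp2 in replicate 3 was lowest at 10.21 (nearest other value 12.62) and Btg1 in replicate 4 was lowest at 8.081 (nearest other value 9.708). Lyve1 in replicate 4 was lowest at 11.79 (nearest other value 12.29) and Hsp90ab1 in replicate 3 was lowest at 12.29 (nearest other value 12.98).

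The time difference of Pabpc1 in control vessels exceeded that in control septa by 1.467 on the log2 scale and that of Tuba1b by 0.8674. Each had an adjusted p of 0.0338 in limma's test of the difference itself, in the unweighted fit over both tissues. The Pabpc1 differences themselves were 0.74 in vessels and -0.73 in septa.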

How the results depend on the processing

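Counts of genes past the threshold in control vessels were small and moved with most settings, against 1 with all 36 vessel replicates. The count was 0 with only the 18 control vessel replicates, with the replicate block, with quantile normalization over genes, with 75th percentile scaling, without the vessel arrays of mice 7 and 29 and without the arrays with Xist above Y-linked genes. It was 2 without the eBayes trend, with both arrays of mouse 25 kept and with Xist minus the Y-linked genes as a covariate. With the mean of all probes it was 3, with array weights 4 and with either filter on dim genes 5. One fit over 75 replicates gave 168, and 13 with weights by tissue, an alternative chosen after seeing the data; the median residual SD was 0.98 in vessels and 0.738 in septa. Leaving out 1 replicate gave 0 to 6. In knockout vessels, against 1, the count was 0 with only the control replicates, the replicate block, the mean of all probes, array weights, no trend, and without mice 7 and 29; it was 114 over 75 replicates and 0 to 7 with 1 replicate left out. In wild-type vessels it was 6 over 75 replicates and 0 to 1 with 1 replicate left out, against 0. The genotype contrast gave 2 over 75 replicates and 0 to 1 with 1 left out, and the contrast with smoke-exposed vessels gave 8 without the arrays with Xist above Y-linked genes and 0 with any 1 replicate left out, each against 0. The contrast with septa, against 2, gave 1 with the mean of all probes and without mice 7 and 29, 0 with the replicate block, 75th percentile scaling, array weights, no trend and without the arrays with Xist above Y-linked genes, and 0 to 6 with 1 replicate left out. The cause of these shifts was not tested. Deviations from group means correlated weakly between replicates of the same number: over 25 pairs the mean was 0.0367, from -0.0763 to 0.224. Over 96 pairs of different numbers the mean was -0.00957, from -0.125 to 0.09. Whether the replicate number stands for something the mice shared was not tested.

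Of 3812 values of the 109 named genes, 3694 kept their direction and their side of the threshold, and 64 newly passed. Another 16 no longer passed, all of Ly6a out of its 35 settings, and 38 reversed in 13 genes. Only Ly6a passed in the main fit, so for the other genes keeping their side meant not passing. Many of the genes were named for a low p in these replicates, so the count of 3694 is a description. Knockout vessels alone reversed Mt2 (-0.217), Btg1 (-0.474), Cd74 (-0.175), Ctss (-0.0983), Ltf (0.0398), Ly6e (0.0287), Nr1d1 (0.413) and Per3 (0.942), and wild-type vessels alone Trak2 (-0.421) and Per2 (-0.318). Csf3r was -0.0423 with 75th percentile scaling and -0.0342 without the arrays with Xist above Y-linked genes, and Cry2 was 0.446 with the mean of all probes. Per3 was 0.244 with array weights, 0.117 with both arrays of mouse 25, 0.266 without mice 7 and 29 and 0.575 without the arrays with Xist above Y-linked genes. With 1 replicate left out, Csf3r ranged from -0.0165 to 0.0632, Ly6e from -0.109 to 0.0284, Per1 from -0.31 to 0.111, Per2 from -0.433 to 0.412, Per3 from -0.448 to 0.324 and Cry2 from -0.348 to 0.0248. The median over all genes was 0.0217, and -0.0203 with quantile normalization, -0.0522 with 75th percentile scaling and 0.0256 with the mean of all probes.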
